A study of Mus musculus with 4 samples.

Results

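The genes of T cell receptor recombination and coreceptor choice were followed through the cells of the aortic arch. The set has 10 members, all found by symbol among the 31053 genes of the count tables: Rag1, Rag2, Dntt, Ptcra, Themis, Ccr9, Cd4, Cd8a, Cd8b1 and Satb1. They were chosen because earlier results of these data showed them in lymphocytes of the arch, so their levels by cell type are given as a description and no test is attached to them. The values that they were chosen by are unique molecular identifiers (UMIs, a tag for each captured RNA molecule), summed over the cells of a type in a library and scaled to a total of 1000000 UMIs of the same cells (CPM).

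Cells came from the aortic arch, its main branches and the perivascular tissue of male mice aged 3 months at the start, and their RNA was sequenced cell by cell. Nrf2flox/flox mice, labelled Nrf2Cdh5Lox, carried floxed alleles of Nfe2l2, which encodes Nrf2, without Cre. Nrf2Cdh5tKO mice carried the same alleles and a Cre driven by the Cdh5 promoter, which is active in endothelium and in part of the blood lineage. Atherosclerotic mice had a high-fat diet for 21 weeks together with a further treatment that is not reported here, while normocholesterolemic mice had the standard diet without it. The tissue of 4 normocholesterolemic or 3 atherosclerotic mice was pooled, so each of the 4 groups is 1 library and differences between groups have no replicate check. Intervals in brackets are exact 95% intervals that cover counting error only and do not cover the spread between mice or between cells. Values of the 4 libraries are given in 1 order throughout: normocholesterolemic Nrf2flox/flox, normocholesterolemic Nrf2Cdh5tKO, atherosclerotic Nrf2flox/flox and atherosclerotic Nrf2Cdh5tKO.

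Developing T cells build their receptor by cutting and joining gene segments. The Rag1 and Rag2 proteins make the cuts, and the polymerase encoded by Dntt adds untemplated bases at the joints. A rearranged beta chain first pairs with the invariant chain encoded by Ptcra, cells that pass this step divide, and cells that have stopped dividing then rearrange the alpha chain while carrying both CD4 and CD8. Themis takes part in receptor signalling during selection, Ccr9 is the receptor for the chemokine Ccl25, and Satb1 organizes chromatin in thymocytes. In the adult these steps take place in the thymus, and mature T cells have switched off the recombination genes.

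Rag1 and Rag2 lie next to each other on chromosome 2 in opposite orientation (GRCm38, chr2:101638282-101649501, minus strand, and chr2:101624718-101632529, plus strand), with 5752 bases between them. Cd8b1 and Cd8a are also neighbours, 35932 bases apart. RefSeq windows of GRCm38.p6 from 250 bases before to 50 bases after the transcription start were found for 8 of the 10 members. Those of Rag1 (chr2:101649483-101649782, minus strand), Ptcra (chr17:46763663-46763962, minus strand), Rag2 (chr2:101624462-101624761, plus strand) and Dntt (chr19:41029025-41029324, plus strand) are shown. These 4 were chosen because almost all of their UMIs within T-lineage cells were in the immature T cells described next. Capitals mark the E-box letters CAGCTG or CAGGTG, read on both strands, which E proteins of early lymphocytes bind.
Rag1: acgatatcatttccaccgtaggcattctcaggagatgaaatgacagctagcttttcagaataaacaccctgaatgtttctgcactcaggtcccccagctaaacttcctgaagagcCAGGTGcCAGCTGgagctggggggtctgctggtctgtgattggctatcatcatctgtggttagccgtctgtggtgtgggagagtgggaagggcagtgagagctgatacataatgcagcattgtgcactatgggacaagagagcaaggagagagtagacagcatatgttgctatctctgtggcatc
Ptcra: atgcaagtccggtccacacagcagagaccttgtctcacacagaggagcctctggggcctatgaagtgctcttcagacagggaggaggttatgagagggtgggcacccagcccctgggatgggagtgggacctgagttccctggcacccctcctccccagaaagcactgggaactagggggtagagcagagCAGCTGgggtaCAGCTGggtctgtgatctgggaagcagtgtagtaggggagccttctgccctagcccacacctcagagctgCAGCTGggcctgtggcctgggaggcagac
Rag2: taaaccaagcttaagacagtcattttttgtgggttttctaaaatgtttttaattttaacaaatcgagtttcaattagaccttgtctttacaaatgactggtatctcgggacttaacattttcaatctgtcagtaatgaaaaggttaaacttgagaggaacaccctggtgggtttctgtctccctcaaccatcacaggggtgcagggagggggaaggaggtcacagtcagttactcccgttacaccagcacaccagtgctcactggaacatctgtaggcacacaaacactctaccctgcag
Dntt: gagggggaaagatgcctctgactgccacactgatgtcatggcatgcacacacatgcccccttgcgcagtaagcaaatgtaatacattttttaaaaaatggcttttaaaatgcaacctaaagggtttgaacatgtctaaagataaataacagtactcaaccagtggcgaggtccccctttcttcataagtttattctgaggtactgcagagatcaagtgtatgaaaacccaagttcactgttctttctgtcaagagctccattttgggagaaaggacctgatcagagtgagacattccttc
The Rag1 window held both letter strings side by side and the Ptcra window held CAGCTG 3 times, while neither string was found in the Rag2 and Dntt windows. An E-box string was present in the windows of 5 of the 8 members and in 35.9% of all genes with a window. The Runx letters TGTGGT occurred in 1 member, with 2 copies in Rag1, and in 18.9% of all genes. No member window held TATAAA, which 15.7% of all genes did.

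After limits on gene number and mitochondrial RNA, 14148 cells with 170545185 UMIs were kept, and the median UMIs per cell were 9200.5 to 14152.5 by library. Pairs of libraries shared 32 cell barcodes in all, and none of these was a T-lineage cell in both. Nfe2l2, the targeted gene, was not lower but higher in the libraries labelled Nrf2Cdh5tKO when counted over the whole gene. Its level was 175.6, 331.7, 175.9 and 338.0 CPM in endothelial cells and 71.0, 152.5, 71.0 and 142.7 in T-lineage cells. Where in the gene these reads lie was not examined. The paper describes Cre as removing a single exon, so a whole-gene count does not by itself show that loss. The study also reports less of that exon and lower Nrf2 target expression in marrow-derived and liver macrophages of Nrf2Cdh5tKO mice. The genotype is used below only as the label of a library, also where a direction between genotypes is given.

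Cells were gated on marker genes that are not members. T-lineage cells (Cd3d, Cd3e, Cd3g, Trac, Trbc1 and Trbc2) numbered 427, 297, 155 and 85, or 964 in all. An immature gate (led by Arpp21, Aqp11, Endou, Cd1d1 and Cd24a) took 231, 199, 94 and 26 of them, a mature gate (led by Il7r, S1pr1, Klf2 and Ccr7) took 75, 58, 27 and 28, and a cytotoxic gate (Nkg7, Ccl5 and granzymes) took 28, 11, 13 and 14. A further 93, 29, 21 and 17 T-lineage cells passed no gate. Their leading genes included some of gamma-delta T cells beside others, with Trdc at 1632, 760, 990 and 1037 CPM. All 6 markers of the immature gate were detected in each library. Cells of that gate were divided by cycling markers into 298 noncycling and 252 cycling cells, and the noncycling cells are called by their gate because their median UMI count was 0.291 to 0.344 of the median of their library.

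The members marked the immature gate. Of 32239 member UMIs in kept cells, 28291 (87.8%) were in T-lineage cells and 25186 of these (89.0%) in the immature gate. That gate held 550 of the 964 T-lineage cells and 6195170 of their 9404578 UMIs over all genes. All 10 members were at least 2-fold higher in T-lineage cells than in fibroblasts in each of the first 3 libraries, where 21.6%, 23.6% and 23.8% of all genes tested were. In the library labelled atherosclerotic Nrf2Cdh5tKO all 9 members tested were, beside 18.2% of all genes. Over the 4 libraries together the counts were 9 of 9 members and 13.1% of all genes. Rag2 was too sparse to be tested in the last library. These shares follow from how the members were chosen.

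**Figure D1:**
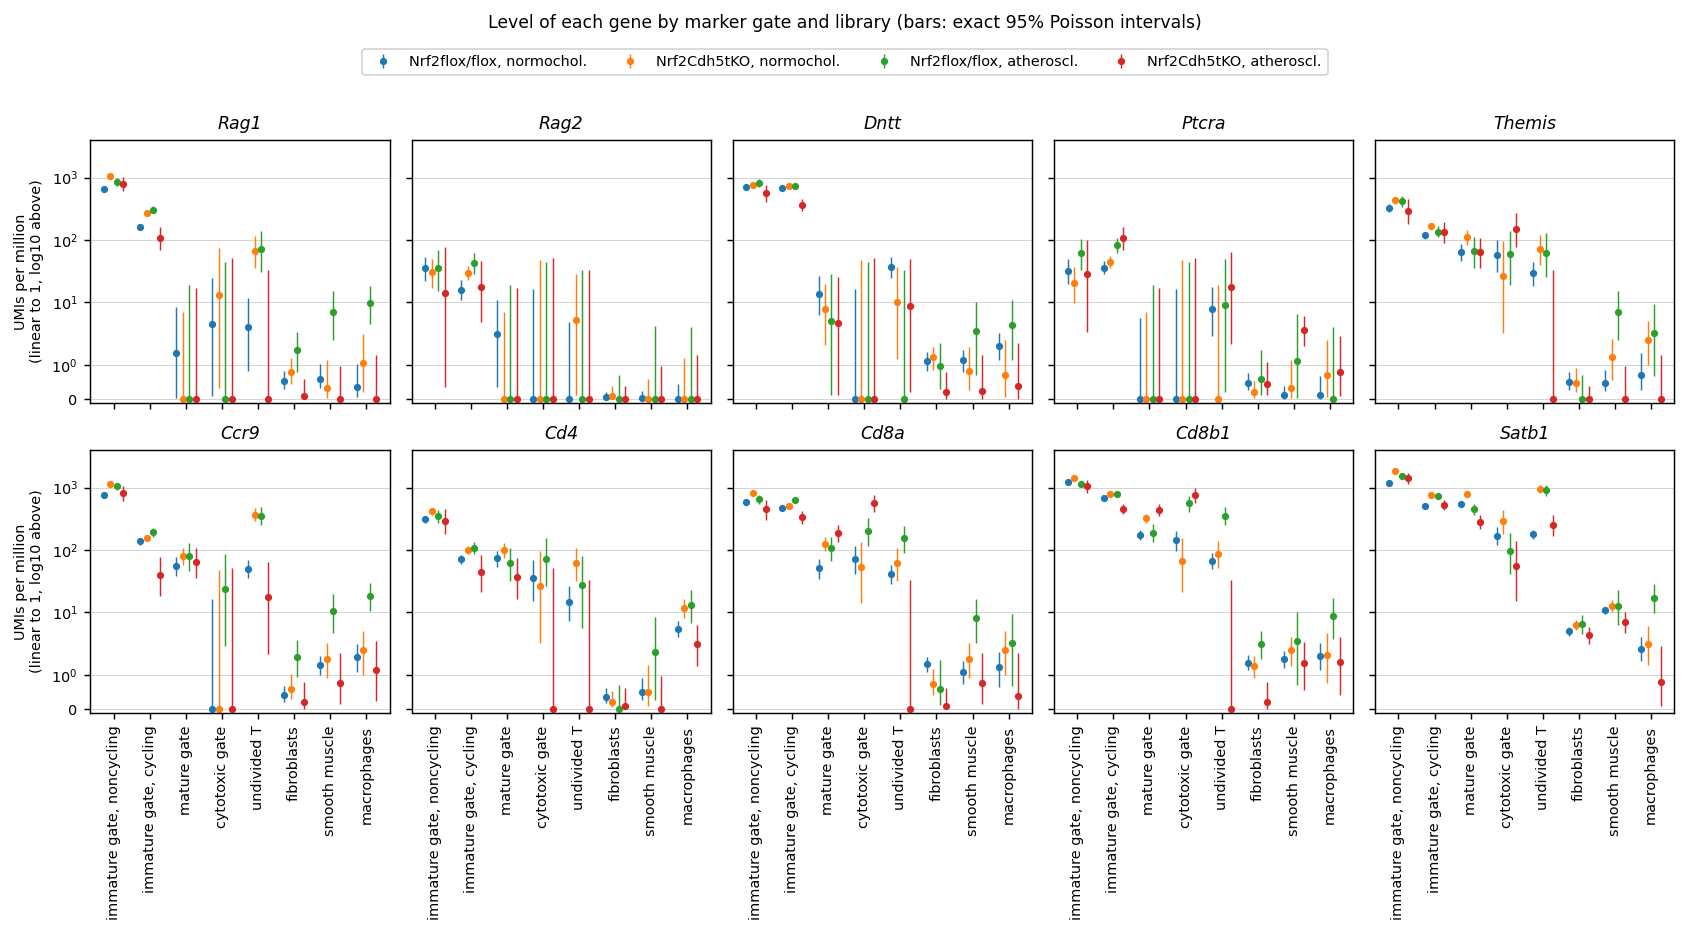
Levels of the 10 members in CPM (log axis), by gate and library. Points are libraries and bars are exact 95% Poisson intervals. Rag1, Rag2, Dntt and Ptcra have their points in the cycling and noncycling cells of the immature gate and are at or near 0 in the mature and cytotoxic gates, whereas the coreceptor genes, Themis and Satb1 keep measurable levels there.

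Rag1, the catalytic subunit of the recombinase, stood at 660, 1060, 847 and 801 CPM in noncycling cells of the immature gate and at 163, 270, 308 and 108 in cycling cells. Only 1 UMI was found in 188 mature-gate cells and 2 UMIs in 66 cytotoxic-gate cells. All 4 libraries had Rag1 in most cells of the immature gate, 463 of 550 (84.2%). Against the mature gate it was higher by 7.57 on the log2 scale in the normocholesterolemic Nrf2flox/flox library, and by at least 6.22, 4.86 and 4.30 in the libraries where the mature gate was at 0 and a floor of 3 counts stood in its place.

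Rag2, the partner subunit, was sparse. Its levels were 35.3, 30.2, 35.1 and 14.1 CPM in noncycling and 16.0, 29.8, 42.6 and 17.9 in cycling cells, on 169 UMIs in all. The last library held 5 of these UMIs, so its values cannot be ordered. Rag2 was found in 94 of 550 immature-gate cells (17.1%), and in the mature gate in 1 cell with 2 UMIs.

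Dntt, which encodes terminal deoxynucleotidyl transferase, was at 714, 750.5, 830 and 562 CPM in noncycling and 673, 742, 732 and 368 in cycling cells. These levels overlapped between the cycling and noncycling cells. In the mature gate it was at 13.8, 7.70, 5.06 and 4.66, on 15 UMIs, which puts the immature gate higher by 5.63, 6.59, 7.22 and 6.47 on the log2 scale. No Dntt UMI was found in the cytotoxic gate.

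Ptcra, the pre-T cell receptor alpha chain, had 283 UMIs in the immature gate and none in the mature and cytotoxic gates of any library. Its levels were 32.2, 20.1, 61.5 and 28.1 CPM in noncycling and 36.3, 44.2, 82.4 and 108 in cycling cells. The 0 in the mature gate has an exact upper limit of 2.33 CPM over the 4 libraries. Against a floor of 3 counts in each library the immature gate was higher by at least 2.94, 2.77, 2.35 and 2.66 on the log2 scale.

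Themis, which tunes T cell receptor signals during selection, was carried into the mature gate. It was at 328, 433, 421 and 295 CPM in noncycling, 119, 169, 136 and 134 in cycling and 64.5, 110, 65.8 and 65.3 in mature-gate cells. In the cytotoxic gate the levels were 57.9, 26.3, 59.4 and 152.

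Ccr9, the homing receptor, was at 770, 1131, 1049 and 815 CPM in noncycling and 138, 158, 193 and 40.3 in cycling cells. The cytotoxic gate held 2 UMIs, both in the atherosclerotic Nrf2flox/flox library. The mature gate had 55.3, 80.9, 81.0 and 65.3, and the immature gate as a whole was higher by 2.45, 2.14, 2.31 and 1.80 on the log2 scale. Ccr9 was not limited to T-lineage cells. The 9 plasmacytoid dendritic cells of the normocholesterolemic Nrf2flox/flox library had 850 CPM (680 to 1048), with UMIs in all 9, and 1 of 2 such cells in the atherosclerotic Nrf2flox/flox library gave 687, while the 3 such cells of the libraries labelled Nrf2Cdh5tKO had none. In the same 2 libraries these cells had Dntt at 68.4 and 211 CPM and Cd8b1 at 87.9 and 528. Ccl25, the ligand of Ccr9, had 13.2, 23.2, 15.9 and 7.21 CPM in T-lineage cells, on 55, 75, 21 and 5 UMIs. In all kept cells it was at 8.17, 8.68, 8.58 and 6.89 CPM.

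The coreceptor genes were present in both immature and mature cells. Cd4 was at 308, 416, 347 and 295 CPM in noncycling, 70.4, 101, 108 and 44.8 in cycling and 73.7, 98.2, 60.8 and 37.3 in mature-gate cells. Cd8a was at 577, 823, 654 and 450 in noncycling, 475, 505, 622 and 332 in cycling and 50.6, 125, 106 and 187 in mature-gate cells. The beta chain gene Cd8b1 had 1215, 1443, 1150 and 1054, then 688, 785, 789 and 457, and 173, 322, 187 and 438 in the same classes. Both CD8 chains were thus higher in the immature than in the mature gate in each library, by 3.31, 2.19, 2.57 and 0.95 on the log2 scale for Cd8a.

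In the cytotoxic gate Cd8a was at 71.3, 52.6, 202 and 568 CPM and Cd8b1 at 143, 65.7, 559 and 748. Both were higher in the 2 atherosclerotic libraries than in the 2 normocholesterolemic ones. The log2 ratio of Cd8a was 1.5 (0.43 to 2.58) between the Nrf2flox/flox libraries and 3.43 (1.97 to 5.38) between the libraries labelled Nrf2Cdh5tKO, on 17 against 16 and 41 against 4 UMIs. Cells with a Cd8a UMI made up 17.9%, 18.2%, 61.5% and 71.4% of the 28, 11, 13 and 14 cells. Trac, the constant part of the alpha chain, was at 486, 723, 642 and 443 CPM in the same cells, and Trdc had no UMI. Cd4 was at 35.7, 26.3, 71.3 and 0 CPM there, on 8, 2, 6 and 0 UMIs.

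Satb1, the chromatin organizer, had 78.2% of its T-lineage UMIs in the immature gate, the lowest share of the 10 members, beside 98.8% for Rag1 and 99.0% for Dntt. It was at 1185, 1835, 1541 and 1420 CPM in noncycling, 513, 748, 744 and 529 in cycling and 556, 797, 446 and 285 in mature-gate cells, and at 169, 289, 95.1 and 55.4 in the cytotoxic gate. Outside the T lineage it was also found in NK cells at 209, 300, 188 and 202 and in B cells at 249, 151, 215 and 175, and in neutrophils at 33.4, 66.5, 50.5 and 95.8. The other 9 members had at most 2 UMIs each in the B cells of a library, and 1 UMI of Dntt was their whole count in NK cells.

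Cycling and noncycling cells of the immature gate differed in the members they carried. Among 9943 genes tested, 14.5% were at least 2-fold lower in cycling cells over the 4 libraries and lower in each of them, and 5 of the 10 members were in CPM: Rag1, Themis, Ccr9, Cd4 and Satb1. In the other direction the share was 8.26% of all genes and no member. The log2 ratio of cycling over noncycling cells was −2.01 (−2.23 to −1.80), −1.97 (−2.15 to −1.79), −1.46 (−1.75 to −1.17) and −2.90 (−3.65 to −2.18) for Rag1. For Ccr9 it was −2.48, −2.84, −2.44 and −4.34, and for Cd4 −2.13, −2.04, −1.68 and −2.72. Dntt had ratios of −0.08 (−0.24 to 0.07), −0.02 (−0.18 to 0.15), −0.18 (−0.42 to 0.07) and −0.61 (−1.18 to −0.03). Ptcra had positive ratios in each library, 0.17, 1.14, 0.42 and 1.94, with an interval above 0 only in the library labelled normocholesterolemic Nrf2Cdh5tKO (0.19 to 2.25). The median over all genes tested was −0.38.

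**Figure D2:**
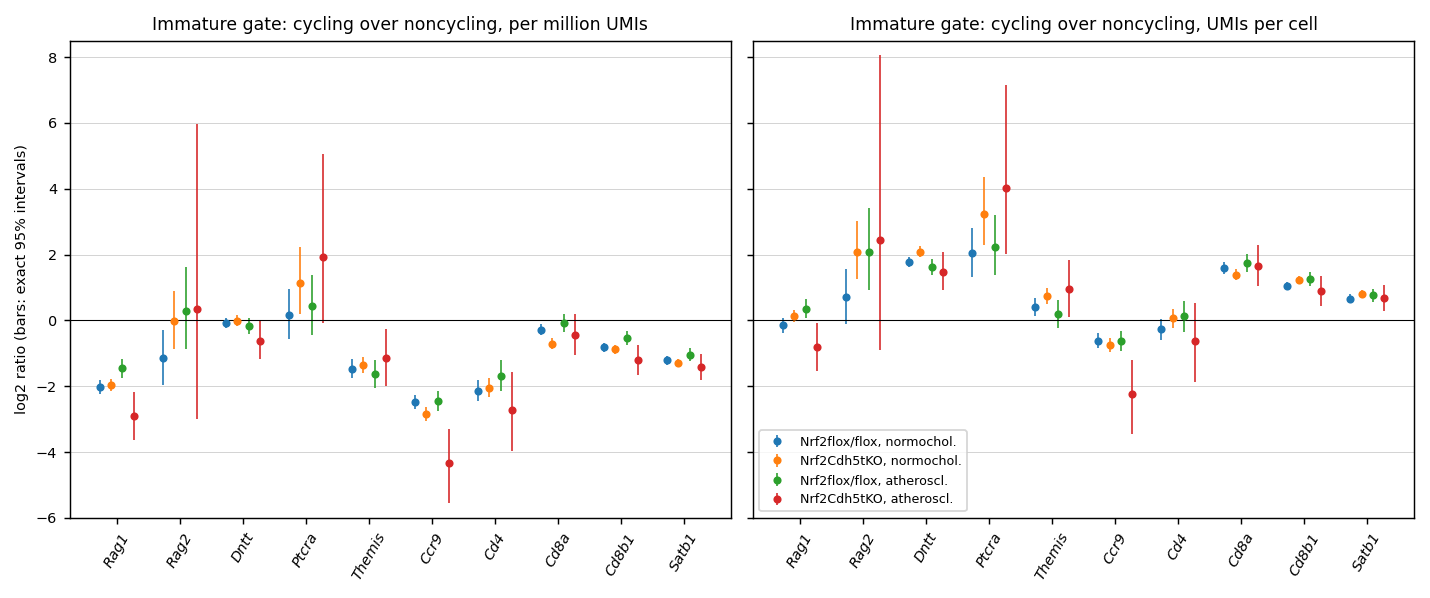
Log2 ratio of cycling over noncycling cells of the immature gate for each member and library, in CPM and per cell, with exact 95% intervals. In CPM, Rag1, Themis, Ccr9, Cd4, Satb1 and both CD8 genes lie below 0 in each library and Dntt lies near 0. Per cell, Rag2, Dntt, Ptcra, Themis, Satb1 and both CD8 genes lie above 0 in each library, and Ccr9 lies below 0. Rag1 and Cd4 lie on both sides of 0 per cell, with Rag1 at −0.80 in the library labelled atherosclerotic Nrf2Cdh5tKO.

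The cycling cells held more UMIs, and the picture differed between levels in CPM and counts per cell. Their mean was 18376, 20486, 15997 and 20278 UMIs per cell beside 5052, 4779, 4556 and 4743 in noncycling cells. Counted per cell, Rag1 had 3.0, 5.54, 4.93 and 2.18 UMIs in cycling and 3.33, 5.07, 3.86 and 3.80 in noncycling cells, log2 ratios of −0.15, 0.13, 0.35 and −0.80. Dntt had 3.60, 3.59, 3.78 and 2.67 UMIs per noncycling cell and 12.4, 15.2, 11.7 and 7.45 per cycling cell. Ccr9 stayed lower in cycling cells per cell as well, by log2 ratios of −0.62, −0.74, −0.63 and −2.24, and was the only member lower on both scales in each library. Satb1 and Themis, lower in CPM, were higher per cycling cell, by log2 ratios of 0.65, 0.81, 0.76 and 0.67 and of 0.40, 0.74, 0.18 and 0.96. Cd4 was at −0.27, 0.06, 0.13 and −0.62 per cell. Ptcra was higher per cell by 2.03, 3.23, 2.24 and 4.03.

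With each cell thinned to 2000 UMIs, a Rag1 UMI was found in 77.2% of 281 noncycling and 37.1% of 251 cycling cells, and in 0.119% of 5061 fibroblasts. The shares for Ccr9 were 77.9% and 27.1%, and for Dntt 71.9% and 72.5%. Those for Ptcra were 4.27% and 8.37%. Without thinning, the shares in noncycling and cycling cells were 86.6% and 81.3% for Rag1 and 89.9% and 61.9% for Ccr9. They were 80.9% and 97.6% for Dntt and 11.4% and 43.3% for Ptcra. At full depth a cell with both Rag1 and Rag2 UMIs was more frequent among cycling cells (56 of 252, 22.2%) than among noncycling cells (31 of 298, 10.4%), but at 2000 UMIs the order turned, with 2.39% and 5.34%.

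V segments of the receptor genes were counted for the same cells. Alpha-chain (Trav) segments summed to 98.2, 74.4, 96.6 and 169 CPM in noncycling and 26.1, 23.6, 42.6 and 26.9 in cycling cells. Beta-chain (Trbv) segments summed to 141, 137, 158 and 155 and to 122, 121, 118 and 94.1. In CPM, alpha segments were thus lower in cycling cells in each library by a wider margin than beta segments. Trac in CPM went the same way as the alpha segments, with log2 ratios of −2.29, −2.39, −1.89 and −3.12. As cycling cells held more UMIs, these directions need not hold per cell, and counts per cell were not compared for these genes.

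Cd4 and Cd8a UMIs in the same cell were a feature of the immature gate, and cells were thinned to an equal depth to compare it with the others. At 2000 UMIs per cell both were present in 29.6% (23.7 to 36.1), 30.9%, 31.1% and 28.0% of immature-gate cells, 161 of 532 in all. The 4 libraries overlapped in this share. No cell of 183 in the mature gate had both (exact upper limit 1.996%), nor did any of 63 in the cytotoxic gate (exact upper limit 5.69%). Among T-lineage cells that passed no gate 2 of 143 had both, and among 5061 fibroblasts none did. In the mature gate 14.8% had Cd4 alone and 14.2% Cd8a alone.

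Noncycling cells had both coreceptor genes more often than cycling cells, 40.2%, 40.4%, 45.7% and 50% against 14.9%, 16.8%, 15.9% and 18.2%. Cd8a alone was found in 43.4% of cycling and 28.5% of noncycling cells over all libraries. The Cd4 UMIs per Cd8a UMI were 0.535, 0.506, 0.530 and 0.656 in noncycling and 0.148, 0.201, 0.174 and 0.135 in cycling cells. This ratio does not depend on depth, and its ranges in the 2 classes did not overlap. Scrublet called 8 of the 550 immature-gate cells doublets, and without doublets the share with both genes was 30.0%, 29.7%, 31.1% and 28.0%.

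**Figure D3:**
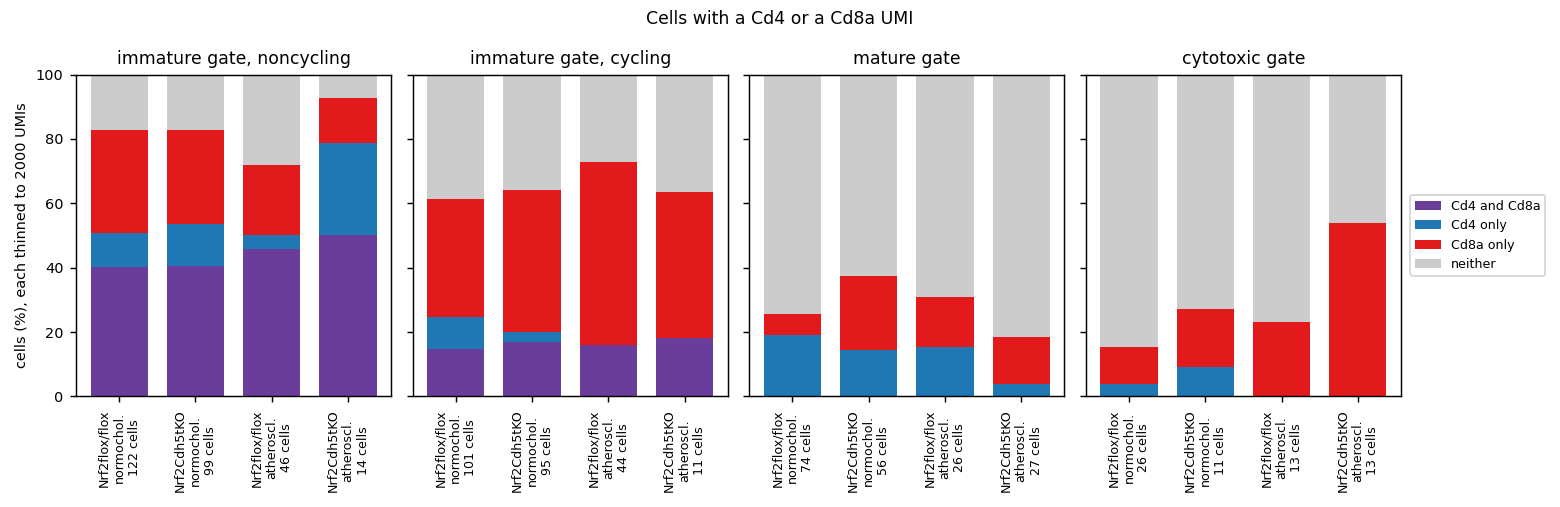
Share of cells (percent) with Cd4 and Cd8a, Cd4 alone or Cd8a alone after thinning to 2000 UMIs, by gate and library. Bars are stacked shares, with cells that had neither gene in grey, and no intervals are drawn. Cells with both genes make up 40.2% to 50% of noncycling and 14.9% to 18.2% of cycling immature-gate cells and 0 of the mature and cytotoxic gates.

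Between libraries, the levels of 9 of the 10 members in T-lineage cells were lowest in the library labelled atherosclerotic Nrf2Cdh5tKO, which also had the lowest share of immature-gate cells. That share was 54.1% (49.2 to 58.9), 67.0% (61.3 to 72.3), 60.6% (52.5 to 68.4) and 30.6% (21 to 41.5). Rag1 in T-lineage cells was at 178, 330, 316 and 117 CPM and Dntt at 424, 564, 532 and 179. Ccr9 was at 201, 304, 326 and 120. Rag2 was at 13.2, 22.9, 28.7 and 7.21, Themis at 124, 191, 164 and 110 and Cd4 at 96.3, 145, 133 and 56.2. For these genes the last library was the lowest and the 2 middle libraries were the highest. The same held for Cd8a at 324, 455, 485 and 270, Cd8b1 at 548, 753, 710 and 469 and Satb1 at 546, 925, 809 and 450. The exception was Ptcra, at 22.9, 29.7, 55.1 and 40.4, with the lowest level in the first library. How many of all genes were lowest in the last library was not counted.

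The following ratios share libraries and are not independent of each other. In the atherosclerotic pair (Nrf2Cdh5tKO over Nrf2flox/flox) 5 members differed by at least 2-fold in T-lineage cells, beside 13.6% of all genes: Rag1 at −1.43, Rag2 at −1.99, Dntt at −1.57, Ccr9 at −1.45 and Cd4 at −1.24 on the log2 scale. Within the immature gate the same ratios were −0.68 (−1.04 to −0.33), −1.26 (−2.97 to 0.08), −0.87 (−1.16 to −0.59), −0.82 (−1.22 to −0.44) and −0.66. Satb1 was at −0.34 (−0.56 to −0.12) there, and at 0.029 with each cell weighted equally. The ratios of the 5 members were thus closer to 0 in the immature gate, of which this library had 26 cells. Among noncycling cells alone the Rag1 ratio was −0.08 (−0.53 to 0.35), and among cycling cells −1.52 (−2.19 to −0.91).

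In the normocholesterolemic pair no member passed 2-fold, beside 10.4% of all genes. The log2 ratios in T-lineage cells ran from 0.38 for Ptcra to 0.89 (0.75 to 1.03) for Rag1, and all 10 were positive. The share of all genes with a positive ratio was not counted. In the immature gate they were 0.56 (0.43 to 0.70) for Rag1, 0.50 (0.41 to 0.59) for Satb1 and 0.12 (0.03 to 0.22) for Dntt.

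Between the Nrf2flox/flox libraries (atherosclerotic over normocholesterolemic), Rag2 at 1.12 (0.48 to 1.74) and Ptcra at 1.27 (0.81 to 1.72) passed 2-fold in T-lineage cells, beside 13.7% of all genes. Ptcra was at 1.13 (0.66 to 1.60) in the immature gate, so its ratio there was close to that in all T-lineage cells. Between the libraries labelled Nrf2Cdh5tKO 6 members were lower by at least 2-fold in the atherosclerotic library, beside 17.6% of all genes in either direction. Their log2 ratios were −1.5 for Rag1, −1.67 for Rag2, −1.66 for Dntt, −1.34 for Ccr9, −1.37 for Cd4 and −1.04 for Satb1. Within the immature gate these were −0.65, −0.81, −0.84, −0.64, −0.65 and −0.38, while Ptcra was at 1.17 (0.48 to 1.81). The Rag2 value there rests on 5 against 73 UMIs. With each cell weighted equally, the immature-gate ratios turned for Ccr9 to 0.036 and for Satb1 to 0.019. Ptcra was therefore higher in the atherosclerotic than in the normocholesterolemic library of both genotypes, and 24 of the 26 UMIs it had in the immature gate of the last library came from its 11 cycling cells.

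Genes of gamma-delta T cells (Trdc, Tcrg-C1, Tcrg-C2, Sox13, Blk and Il23r) moved within the immature gate as well. Summed, they were at 229, 72.4, 746 and 478 CPM in noncycling and 281, 191, 197 and 76.2 in cycling cells. Against the normocholesterolemic library of the same genotype label, both atherosclerotic libraries were thus higher in noncycling cells, on 149, 36, 170 and 34 UMIs. They were lower in cycling cells, on 527, 371, 139 and 17 UMIs. In noncycling cells Trdc gave 83, 24, 37 and 19 of the UMIs and Tcrg-C1 22, 1, 88 and 11. In the library labelled atherosclerotic Nrf2Cdh5tKO all 19 Trdc UMIs came from 1 of its 15 noncycling cells. The higher sum in noncycling cells of that library thus rests largely on that cell. The share of noncycling cells with a Trdc UMI, given under other observations, was lower in the atherosclerotic of the libraries labelled Nrf2Cdh5tKO. Tcrg-C1 and Tcrg-C2 in the atherosclerotic Nrf2flox/flox library and Il17a in that labelled atherosclerotic Nrf2Cdh5tKO were among the 10 leading genes of the noncycling cells. Their part in the library ratios of the members was not tested.

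**Figure D4:**
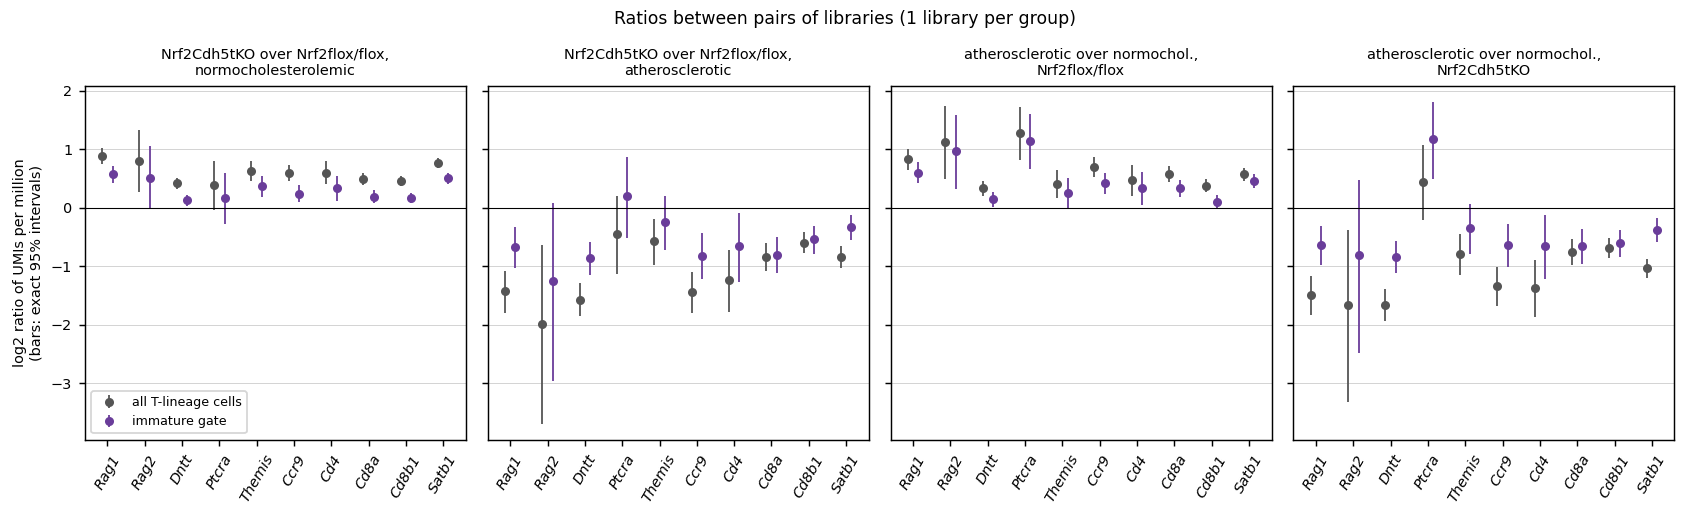
Log2 ratios of the members between library pairs in T-lineage cells and in the immature gate, with exact 95% intervals for counting error. In both pairs with the library labelled atherosclerotic Nrf2Cdh5tKO the ratios of the 9 members other than Ptcra lie below 0 and are closer to 0 in the immature gate than in all T-lineage cells, though Satb1 in both pairs and Ccr9 between the libraries labelled Nrf2Cdh5tKO turned to above 0 in the immature gate when each cell was weighted equally.

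In fibroblasts, smooth muscle cells and macrophages the members were found at traces. Summed over the 10 members, fibroblasts had 11.5, 12.1, 15.5 and 5.76 CPM, which is 0.462%, 0.325%, 0.437% and 0.317% of the level in T-lineage cells of the same library. Smooth muscle cells had 18.1, 22.0, 55.4 and 14 (0.731%, 0.590%, 1.56% and 0.770%) and macrophages 16.6, 26.8, 77.8 and 8.29 (0.670%, 0.720%, 2.19% and 0.456%). In each of these 3 cell types the lowest CPM was in the library with the fewest immature-gate cells. Across the first 3 libraries the order ran the other way, with rising levels beside 231, 199 and 94 immature-gate cells. As a share of the T-lineage level, smooth muscle cells were lowest in the library labelled normocholesterolemic Nrf2Cdh5tKO (0.590%). A link with the number of these cells was not tested. Rag1 in fibroblasts came to 43 UMIs in 5348 cells, of which 34 cells had 1 UMI, 3 had 2 and 1 had 3.

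The make-up of these traces differed from that of T-lineage cells. Dntt made up 15.6% of member UMIs in T-lineage cells, 9.52% in fibroblasts and 7.79% in macrophages, and Cd8b1 21.1%, 13% and 11.4%. Satb1 made up 23.5% in T-lineage cells, 48.0% in fibroblasts, 55.8% in smooth muscle cells and 15.9% in macrophages. Cd4 made up 3.83% in T-lineage cells and 32.1% in macrophages, on 99 UMIs from 57 macrophages with 1 UMI, 12 with 2 and 5 with 3 or more. Ptcra made up 1.03% in T-lineage cells, 3.57% in fibroblasts and 3.05% in smooth muscle cells, on 27 and 20 UMIs. Without Satb1 and Cd4 the remaining 8 members stood at 0.336%, 0.211%, 0.342% and 0.099% of the T-lineage level in fibroblasts.

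**Figure D5:**
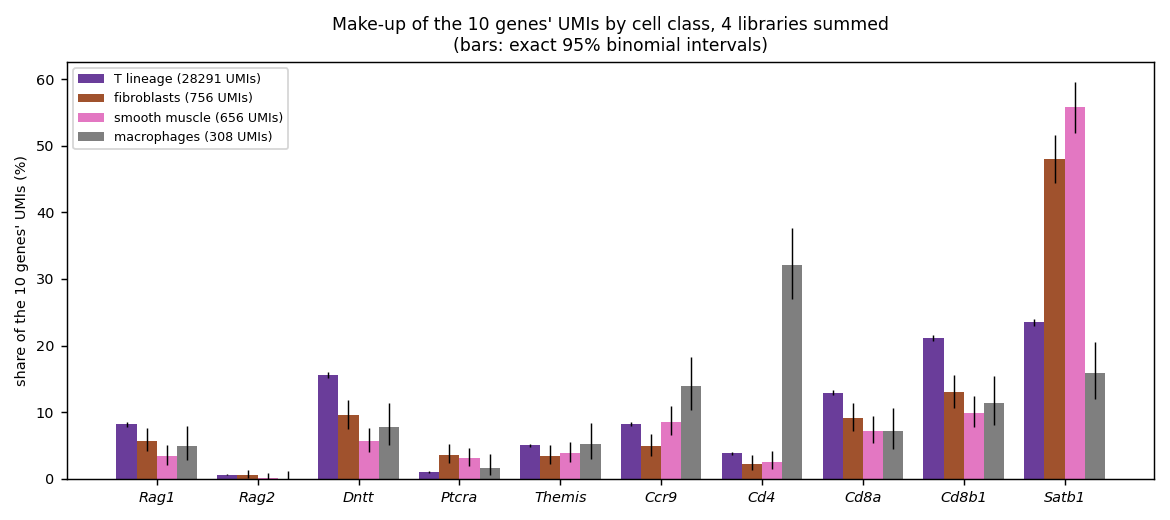
Share of each member in the summed UMIs of the 10 members (percent), in T-lineage cells, fibroblasts, smooth muscle cells and macrophages over the 4 libraries. Satb1 takes 48.0% and 55.8% in fibroblasts and smooth muscle cells and Cd4 takes 32.1% in macrophages, beside 23.5% and 3.83% in T-lineage cells.

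Part of the traces came from few cells. A total of 31 fibroblasts, smooth muscle cells and macrophages had at least 3 UMIs of a member. Of these 31, 12 were positive for at least 3 T-lineage markers, that is, above the mean of their library. Leaving out all 31 cells, whatever their T-lineage markers, lowers the shares by construction. The share in smooth muscle cells of the atherosclerotic Nrf2flox/flox library was then 0.783% in place of 1.56%, and that in its macrophages 0.633% in place of 2.19%. A macrophage of that library held 48 member UMIs from 8 members. A smooth muscle cell of the library labelled atherosclerotic Nrf2Cdh5tKO with 18840 UMIs had 14 UMIs of Ptcra and no other member. It was positive for no T-lineage marker.

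Markers of thymic epithelium were read in the same cells. Foxn1 had no UMI in any kept cell, Aire 1, Prss16 8, Psmb11 9, Tbata 46 and Ccl25 1390 UMIs. Summed, they stood at 13.2, 23.5, 15.9 and 10.1 CPM in T-lineage cells, where 156 of their UMIs were Ccl25, and at 8.51, 9.05, 9.09 and 7.33 CPM in all kept cells. In the cycling and in the noncycling immature-gate cells of each library 5 or 6 of these 6 genes were at 0. Their part in the members' levels was not tested.

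Other genes of the same steps were read from 5 lists. Of 12 DNA end-joining genes tested 4 were at least 2-fold higher in T-lineage cells than in fibroblasts in each library, beside 13.1% of all genes. Of 12 Notch and early T factors 9 were, of 12 lineage and selection genes 7, of 13 receptor signalling genes 11 and of 8 egress and homing genes 7. Their median log2 ratios were 1.09, 3.30, 5.65, 7.79 and 6.56, beside −0.000752 over all 11122 genes tested. Several of these genes (Cd3d, Cd3e, Cd3g, Il7r, S1pr1, Klf2 and Ccr7 among them) were also gate markers, so the counts are partly set by the gates.

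The same lists were compared between cycling and noncycling immature-gate cells, where 14.5% of all genes were at least 2-fold lower in cycling cells and 8.26% higher, in CPM. Among lineage and selection genes 7 of 11 were lower and of 14 receptor signalling genes 5, with none higher in either list. The counts in the other lists were 1 of 12 Notch and early T factors lower, 1 of 7 egress and homing genes lower, and 2 of 11 end-joining genes lower and 2 higher. The median log2 ratios were −1.34 for lineage and selection, −0.93 for receptor signalling, −0.67 for Notch and early T factors, −1.01 for egress and homing and 0.07 for end joining, beside −0.38 over all genes.

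As for the members, the direction in CPM was often not that per cell. Cd28, a costimulatory receptor, was at 139 CPM in cycling and 389 in noncycling cells but had 2.62 and 1.89 UMIs per cell. Myb, a transcription factor of progenitors and the Notch-list gene that was lower, was at 455 and 1004 CPM with 8.56 and 4.88 UMIs per cell. Egr1, an early response factor of receptor signals, was lower in cycling cells on both scales, at 61.7 and 307 CPM and 1.16 and 1.49 UMIs per cell. Nr4a1, another early response gene, was at 182 and 301 CPM and 3.42 and 1.46 UMIs per cell. The T cell factor Tcf7 stood at 982 and 1189 CPM and Bcl11b, which fixes T cell identity, at 361 and 703, with more UMIs per cycling cell for both (18.5 against 5.78 and 6.81 against 3.41).

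Hmgb1 and Hmgb2, DNA-bending proteins that assist the recombinase and are also known from dividing cells, were the 2 end-joining genes that were higher in cycling cells, at 5707 against 2099 CPM and 5763 against 479. Xrcc6, which encodes the Ku70 end-binding protein, was at 269 and 256. The CD3 chain genes Cd3d, Cd3e and Cd3g, markers of the T-lineage gate, were at 732, 587 and 900.4 CPM in T-lineage cells. Il7r, Ccr7 and Klf2, which mark naive cells that leave the thymus and were markers of the mature gate, were at 4.84, 0.843 and 70.8 CPM in cycling cells beside 695, 483 and 544 in the mature gate.

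Across 37 sums of gated cells by library, the genes with the closest pattern to each member were named by Pearson correlation of log2(CPM + 1) over 14274 genes. The points share libraries and cells, and the coefficients are a description. Rag1 was followed by Syt13, H2-Q2 and 5830418P13Rik (each 0.94). Rag2 was followed by A930003A15Rik (0.97), Arpp21 (0.95) and Chrna9 (0.94), and Dntt by Arpp21 (0.95), Dgkeos (0.93) and Chrna9 (0.92). Ptcra was closest to Fam83d (0.92), Tmem121 (0.90) and Chrna9 (0.87). Trat1, an adaptor of the receptor complex, was the gene closest to Themis (0.98), Cd4 (0.94) and Cd8b1 (0.96). It was followed by Cd6 (0.97) and Bcl11b (0.96) for Themis, by Gm2245 (0.93) and Cd6 (0.92) for Cd4 and by Bcl11b (0.96) and Cd6 (0.95) for Cd8b1. Cd8a was closest to Bcl11b (0.97), Trat1 (0.97) and Cd6 (0.96), and Satb1 to Ptprcap (0.94), Sept1 (0.94) and Plcxd2 (0.93). Ccr9 had Nsg2 (0.91) and Trat1 (0.90) among its closest genes. Arpp21 was a marker of the immature gate.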

How the data were processed

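The values deposited by the authors are raw whole counts of UMIs for each gene in each cell barcode. The authors made them from 10x 3′ libraries of sorted DAPI-negative cells, 1 pooled library per group, and the submitters' processing notes name Cell Ranger 6.1.2 and mm10. Barcodes were kept when 200 to 6000 genes were detected and mitochondrial UMIs were no more than 15%, and Scrublet (scanpy 1.11.5) calls were used only as an alternative. A marker was positive in a cell when its UMIs per 10000 exceeded the mean over the kept cells of the library. A lineage needed at least 3 of its 6 markers and 2 more than any other lineage, a T subset at least 2 and more than the other subsets, and cycling cells at least 3 of 6. UMIs were summed per class and library and given in CPM with exact Poisson intervals, ratios with exact binomial intervals and shares with Clopper-Pearson intervals, all for counting error only. PCR duplicates are removed by the UMI, but the UMIs of a cell are not independent. Where a class was at 0, a floor of 3 counts per library was used. To equalize depth, cells were thinned to 2000 UMIs and shallower cells were left out. Genes were tested for a 2-fold difference with at least 20 UMIs in the 2 classes together, and no test between conditions was made. As 3′ counts are not per length, levels of different genes were not compared. On the same strand, Rag1 shares 80 exonic bases with B230118H07Rik and Ccr9 shares 269 with Gm17200, which could affect their counts. Rag2 shares 208 with B230118H07Rik on the opposite strand. How reads in these stretches were counted was not examined. The genes named are all members, the 3 genes of each list with the most UMIs in T-lineage cells and the 3 genes closest to each member by correlation, with others named from counts after their values were seen. Some gate markers and named genes are not reported here. The members, lists and gates were chosen with earlier results of these data known. Calculations used Python 3.11.15, numpy 2.4.6, scipy 1.17.1 and pandas 2.3.3.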

Additional observations from a re-analysis of the deposited data

Results flagged for a closer look

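The difference between the atherosclerotic and the normocholesterolemic library had opposite signs in the 2 genotypes for 9 of the 10 members in T-lineage cells, with Ptcra as the exception, and the size was at least 1.5-fold in both genotypes for 3 of them. How many of all genes had opposite signs, or did so at 1.5-fold, was not counted, so these counts do not set the members apart. This difference between genotypes was not tested, since each group is 1 library. On the log2 scale Rag1 was at 0.82 between the Nrf2flox/flox libraries and at −1.5 between the libraries labelled Nrf2Cdh5tKO, Rag2 at 1.12 and −1.67 and Ccr9 at 0.70 and −1.34. Within the immature gate the values were 0.59 and −0.65 for Rag1 and 0.96 and −0.81 for Rag2. The value of −0.81 rests on 5 against 73 UMIs, and that of −1.67 on 5 against 74, so the Rag2 values between these libraries are uncertain. The share of immature-gate cells among T-lineage cells moved in the same direction, from 54.1% to 60.6% and from 67.0% to 30.6%, and its part in the values within the gate was not tested.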

How the results depend on the processing

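Of 1252 values under alternative settings, 1077 stayed within the counting interval of the value reported and 171 left it. A further 4, all ratios whose reported interval excluded 0, changed sign. Sign changes of other ratios were not counted apart. Counts of members have no interval and were taken as unmoved within 1.5-fold. No paired analysis was possible because each group has 1 library, and no library could be left out. A mitochondrial limit of 10%, a gate of 4 of 6 markers and a lower minimum of 10 UMIs moved none of the main values. Without the upper limit on genes, the 10 members summed to 3504, 4109 and 4115 CPM in the immature gate of the first 3 libraries (3649, 4445 and 4535 as reported) and to 3498, 3359 and 1701 in T-lineage cells of the last 3. The fibroblast level was then 0.542% and 0.628% of the T-lineage level in the Nrf2flox/flox libraries, the smooth muscle level was 0.745% in the library labelled normocholesterolemic Nrf2Cdh5tKO, and the log2 ratios of the sum were 0.52 and, in the immature gate, 0.23 for the normocholesterolemic pair, −0.45 in the immature gate of the atherosclerotic pair, 0.46 and 0.23 between the Nrf2flox/flox libraries and −0.45 in the immature gate between the libraries labelled Nrf2Cdh5tKO. Without Scrublet doublets the sums were 2609 and 3811 in T-lineage cells and 3739 in the immature gate of the normocholesterolemic libraries, the smooth muscle level 0.640%, and the log2 ratios 0.55 in the normocholesterolemic pair and 0.45 between the Nrf2flox/flox libraries. With a mean over cells, which weights each cell equally, the sums were 3576, 4985, 4890 and 2427 in T-lineage cells and 5811, 6539, 6920 and 5792 in the immature gate. The fibroblast level was then 0.335%, 0.272% and, in the last library, 0.228%, the smooth muscle level 0.493%, 0.897% and, in the third library, 2.91%, and the macrophage level 0.550% and, in the third library, 1.20%. The log2 ratios of the sum were 0.48 and 0.17 in the normocholesterolemic pair, −0.26 and −0.18 in the immature gate of the pairs with the library labelled atherosclerotic Nrf2Cdh5tKO, and 0.45 and 0.25 between the Nrf2flox/flox libraries. In this setting 4 ratios in the immature gate whose reported interval excluded 0 changed sign. These were Cd8b1 to −0.012 in the normocholesterolemic pair, Satb1 to 0.029 in the atherosclerotic pair, and Ccr9 to 0.036 and Satb1 to 0.019 between the libraries labelled Nrf2Cdh5tKO. The cause was not tested. Cells with both Cd4 and Cd8a made up 59.7%, 67.3%, 59.6% and 53.8% of the immature gate at full depth and 11.4%, 13.1% and 10.6% in the first 3 libraries at 1000 UMIs. At a fold of 1.5 in place of 2, 6, 8 and 4 members differed in the normocholesterolemic pair, the atherosclerotic pair and between the Nrf2flox/flox libraries. The shares of all genes at a fold of 1.5 were not counted, so these counts have no background beside them. Leaving out stromal cells and macrophages with 3 or more UMIs of a member, chosen after seeing the data, gave smooth muscle levels of 0.545%, 0.489%, 0.783% and 0.518% and, in the atherosclerotic Nrf2flox/flox library, 0.325% in fibroblasts and 0.633% in macrophages. Depth limits Rag2 and Ptcra most, with 169 and 283 UMIs in the immature gate, and the library labelled atherosclerotic Nrf2Cdh5tKO, with 26 cells there.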

Other observations

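Several members differed between libraries in the ungated T-lineage cells. The leading genes of these cells included Trdv4 and Cd163l1 in each library, Il17a in the Nrf2flox/flox libraries and Trdc in the atherosclerotic libraries. By library Cd8b1 ran from 0 to 351 CPM there and Cd8a from 0 to 153. Ccr9 was at 50.5, 367, 351 and 17.7 CPM and Satb1 at 179, 961, 900 and 248, both higher in the library labelled normocholesterolemic Nrf2Cdh5tKO and in the atherosclerotic Nrf2flox/flox library, on 93, 29, 21 and 17 cells. Trdc, the delta-chain constant region, was also found in 68.6%, 63.2%, 61.4% and 54.5% of cycling and 17.1%, 9.62%, 18% and 6.67% of noncycling immature-gate cells at full depth, where cycling cells held 3.51 to 4.29 times as many UMIs.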
